A study of Homo sapiens with 24 samples.

Results

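The Kruppel-like factors followed here were KLF2, KLF3, KLF4, KLF5, KLF6, KLF7, KLF9, KLF10, KLF12 and KLF13, which are 10 of the 18 numbered KLF genes among 62703 gene identifiers in the count files. They were chosen by symbol, and KLF9 headed the choice because its response to sorbitol differed so widely between WT and WNK2- cells. The differences of KLF9 that involve WT or WNK2- libraries are therefore given as a description with no test, and counts of factors that passed a test are over the 9 others. RNA-seq was performed on T/C-28a2 cells, an immortalised human chondrocyte line, in 6 groups of 4 libraries. WT Ctr and WT Sor were unmodified cells without and with 100 mM sorbitol for 7 days, a treatment that raises the osmolarity of the medium. WNK2 trans Ctr and WNK2 trans Sor were labelled as the same cells transfected with a WNK2 plasmid, which the methods placed 48 h before the change of medium, and WNK2- Ctr and WNK2- Sor were cells lacking an exon of WNK2. WNK2 is a kinase of the family that senses cell volume and chloride. All 6 groups were kept in low-serum medium. The WNK2- cells were a single clone, so effects of the deletion and of the cloning cannot be told apart, and no group received a plasmid without WNK2.

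Kruppel-like factors bind GC-rich and CACCC-containing DNA through zinc fingers at the carboxyl end, and the family is usually divided by the partners of the amino-terminal part. KLF9, KLF10 and KLF13 belong to the branch that recruits the SIN3A corepressor, KLF3 and KLF12 to the branch that recruits the CtBP corepressors, and KLF2, KLF4, KLF5, KLF6 and KLF7 to the branch best known for activating transcription. KLF9 is induced by glucocorticoids and thyroid hormone in many tissues, KLF10 was described as an early gene of TGF-beta signalling, and KLF2 and KLF4 lie downstream of the kinase ERK5 and its MEF2 targets. In cartilage, KLF2 and KLF4 have been linked to matrix genes.

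The level of WNK2 itself was examined first, as CPM, the count scaled to the size of the library. WNK2 was at 169, 78.5, 116 and 186 CPM in the libraries labelled WT Ctr and at 16.1, 12.9, 9.98 and 15.8 CPM in those labelled WNK2 trans Ctr. In WNK2 trans Sor it was at 207, 122, 145 and 187 CPM, in WT Sor between 15.4 and 17.4, in WNK2- Ctr between 21.1 and 22.7, and in WNK2- Sor between 16.9 and 22.8. The level was thus higher in the untreated libraries labelled untransfected than in those labelled transfected, an order that goes against the labels. The libraries labelled WT Ctr were each above each WNK2- library, the order that their genotype labels give. Whether the labels were exchanged was not tested. The level in WNK2- did not fall below that in WT Sor, and counts over the whole gene cannot show the loss of one exon. The comparisons that use neither doubted group are given first, and the main ones that use one are given with the labels kept and with the other group in its place. The methods call the 4 libraries of a group biological replicates. The labels do not say whether they came from separate cultures, and p-values measure the spread between these libraries.

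Total counts ranged from 14153002 to 25664619 per library, and each WNK2- library was deeper than each WT library. Of the markers of cartilage that were checked, 7 of 11 had enough counts to be tested. HAPLN1, the link protein of the cartilage matrix, was the highest at a mean of 13.8 to 117 CPM per group, whereas COL2A1, the main collagen of cartilage, was at 0.33 to 9.76 CPM and ACAN, its main proteoglycan, at 0.58 to 8.47 CPM. SOX9 and COL10A1 were listed at 0 in every library. JUNB and the ubiquitin ligase ITCH, which most cells use, were listed at 0 as well, so a 0 in these files cannot be read as absence.

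The expression of the 10 factors differed in level as well as in response. Per kilobase of exon, KLF10 averaged 21.9 CPM over the 6 group means, followed by KLF9 at 17.1, KLF6 at 11.4, KLF4 at 7.31, KLF2 at 7.11, KLF3 at 5.44, KLF12 at 3.25, KLF5 at 3.19, KLF7 at 2.82 and KLF13 at 1.79. The highest group mean was 9.47 times the lowest for KLF9, between 2.77 and 2.88 times for KLF7, KLF6 and KLF4, and from 1.43 times for KLF2 to 1.85 times for KLF10 among the other 6. KLF9 therefore spanned the widest range of the set, which its choice by a difference in sorbitol response favoured, and KLF2 the narrowest. In WT Sor, KLF9 was the most abundant of the 10 per kilobase, at 28.4 CPM against 22.1 for KLF10, and the libraries of the pair did not overlap. In WNK2- Sor it ranked 8 of 10, at 3.61 CPM per kilobase, where its range of 3.29 to 4.21 overlapped those of KLF5, KLF7 and KLF3. KLF6 was there the most abundant at 19.0 CPM per kilobase, ahead of KLF10 at 16.6.

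**Figure D1:**
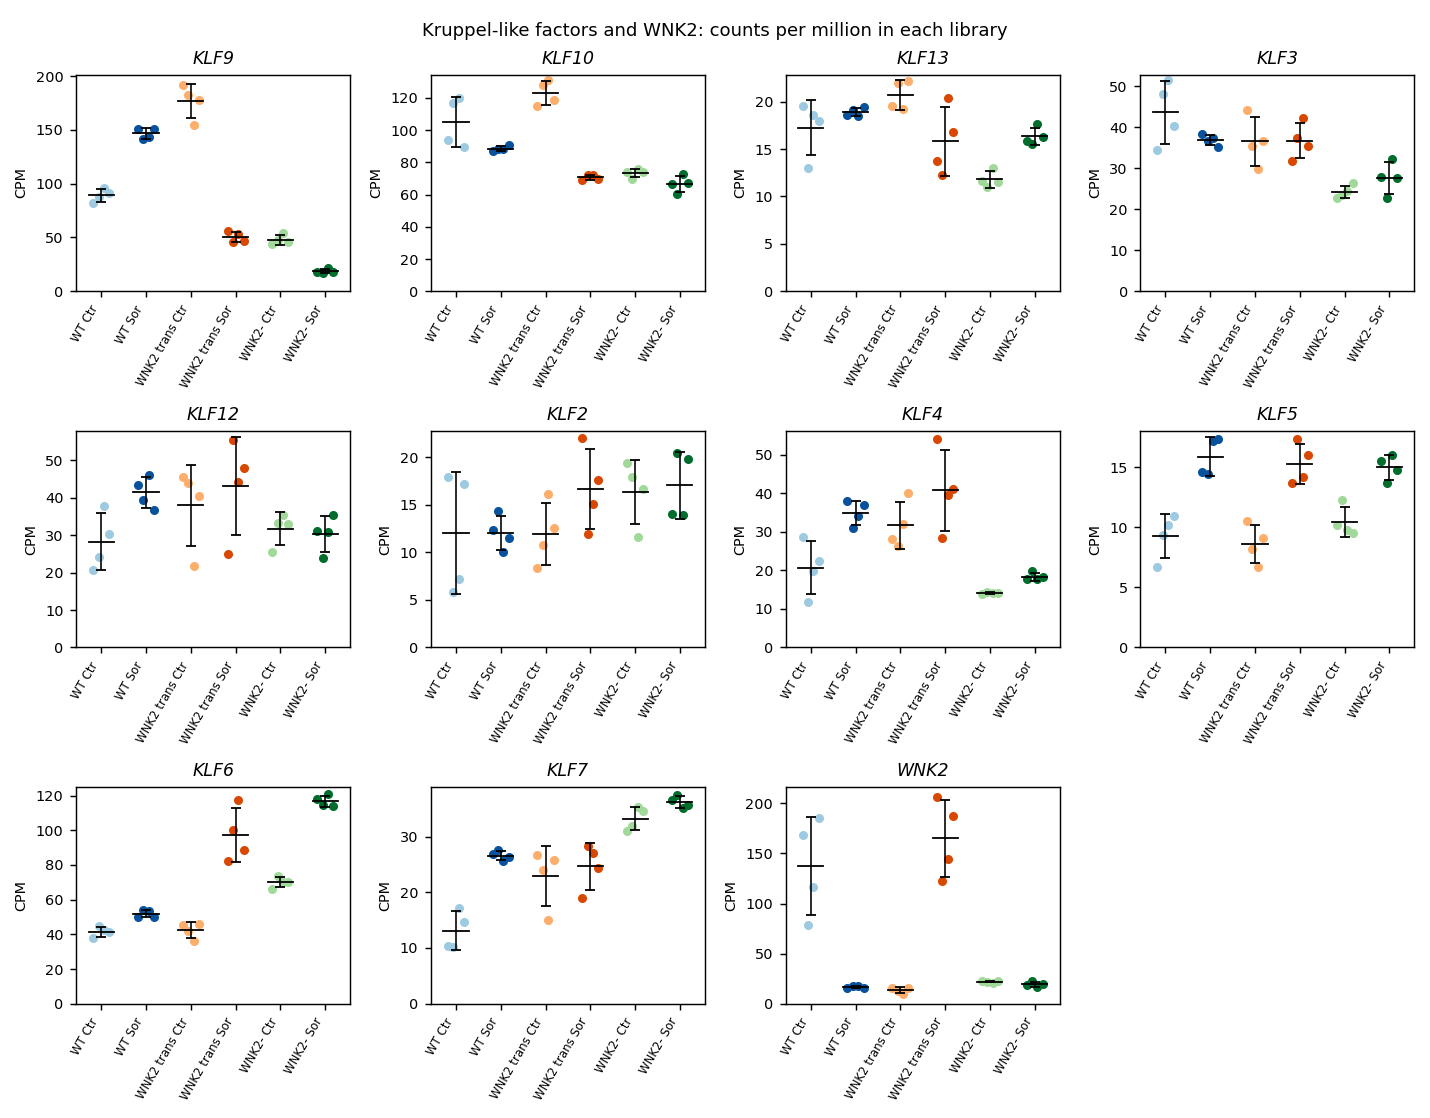
Level of each Kruppel-like factor and of WNK2 in CPM (counts scaled to the size of the library, linear axes from 0) in the 6 groups. Each point is a library, the long line is the mean of 4 libraries and the bar is ± 1 SD; KLF9 ranges from a mean of 18.7 CPM in WNK2- Sor to 177 CPM in WNK2 trans Ctr, and WNK2 is high only in the libraries labelled WT Ctr and WNK2 trans Sor.

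Promoter sequence is shown for KLF9, which spanned the widest range, for KLF6, which had its highest level where KLF9 had its lowest, and for KLF2, which spanned the narrowest. RefSeq promoter windows (GRCh38.p14) were matched by symbol for 8 of the 10 factors. The runs hold the bases before the start that lie outside the annotated gene model, 5′ to 3′, with GC boxes (GGGCGG on either strand), CACCC boxes and MEF2-type elements (CTANNNNTAG) in capitals.
KLF9 (chr9:70414658-70414907, minus strand): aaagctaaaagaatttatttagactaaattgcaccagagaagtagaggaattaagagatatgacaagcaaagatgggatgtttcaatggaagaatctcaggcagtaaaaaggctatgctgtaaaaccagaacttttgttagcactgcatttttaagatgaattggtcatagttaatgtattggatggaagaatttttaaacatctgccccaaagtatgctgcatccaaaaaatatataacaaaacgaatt
KLF6 (chr10:3785282-3785459, minus strand): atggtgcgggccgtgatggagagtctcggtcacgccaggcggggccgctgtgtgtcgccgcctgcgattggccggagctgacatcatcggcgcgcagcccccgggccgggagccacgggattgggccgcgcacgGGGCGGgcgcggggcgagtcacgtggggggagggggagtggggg
KLF2 (chr19:16324576-16324816, plus strand): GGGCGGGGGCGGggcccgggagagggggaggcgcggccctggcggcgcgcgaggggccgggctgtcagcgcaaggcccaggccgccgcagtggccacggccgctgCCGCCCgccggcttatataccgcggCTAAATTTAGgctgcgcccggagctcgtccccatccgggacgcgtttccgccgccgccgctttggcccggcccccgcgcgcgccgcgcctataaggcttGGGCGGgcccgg
In the 250 bases before the start, G and C made up 32.4% for KLF9, 72.4% for KLF6 and 80.0% for KLF2. The KLF9 window held none of the 3 motifs in capitals, nor the glucocorticoid half-site AGAACA or the half-site AGGTCA of thyroid hormone receptors. The KLF6 window held 2 GC boxes, of which 1 is in the stretch shown, and the KLF2 window held 4 GC boxes and 1 MEF2-type element whose first base lies 120 bases before the start. Of 35116 promoter windows of that length, 42.6% held a GC box, 54.7% a CACCC box, 2.36% the MEF2-type element, 12.4% AGAACA and 12.1% AGGTCA on either strand. A match describes letters and not a bound site, and an absence covers only these 250 bases.

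KLF9 (ENSG00000119138, chr9:70384597-70414624, minus strand) was at 151, 142, 144 and 151 CPM in WT Sor. In WNK2- Sor it was at 18, 17.0, 21.8 and 17.9 CPM, and in WNK2- Ctr at 43.5, 47.4, 54.5 and 46.2 CPM. The 3 groups did not overlap, with WT Sor highest and WNK2- Sor lowest. The level in WNK2- Sor was 7.86-fold lower than in WT Sor (log2 fold change -2.98, SE 0.10), and 2.57-fold lower than in WNK2- Ctr (log2 fold change -1.36, SE 0.10). In WNK2 trans Sor, where WNK2 was high, KLF9 was at 56.0, 46.0, 53.4 and 47.0 CPM, 2.90-fold below WT Sor (log2 fold change -1.54, SE 0.10) and overlapping WNK2- Ctr. KLF9 was thus lower under sorbitol both in cells lacking a WNK2 exon and in cells with a high WNK2 level than in WT Sor.

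The remaining groups were those whose WNK2 levels, relative to each other, go against their labels. In the libraries labelled WT Ctr, KLF9 was at 81.9, 87.3, 95.7 and 91.4 CPM. In those labelled WNK2 trans Ctr it was at 192, 183, 154 and 178 CPM, the highest of the 6 groups. The direction of the sorbitol difference in WT turned on which of them was taken as the untreated group. Against the libraries labelled WT Ctr, the log2 fold change of KLF9 in WT Sor was 0.72 (SE 0.09), and against those labelled WNK2 trans Ctr it was -0.27 (SE 0.09). The difference between genotypes in the sorbitol response, by which KLF9 was chosen, was -2.08 on the log2 scale (SE 0.14) as labelled and -1.09 (SE 0.13) with the libraries labelled WNK2 trans Ctr in place of WT Ctr. Within the transfected labels, which the interaction that chose KLF9 did not use, KLF9 fell by 1.80 on the log2 scale (SE 0.10, edgeR quasi-likelihood test, adjusted p = 9.40e-14). This test is not fully independent of the choice, because members were chosen with earlier results known and the spread was estimated over all libraries. Every WNK2 trans Sor library was below every WNK2 trans Ctr library. With the libraries labelled WT Ctr as the untreated group the log2 fold change was -0.82 (SE 0.09). Among untreated groups, WNK2- Ctr was below the libraries labelled WT Ctr by a log2 fold change of -0.89 (SE 0.09) and below those labelled WNK2 trans Ctr by -1.88 (SE 0.10).

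**Figure D2:**
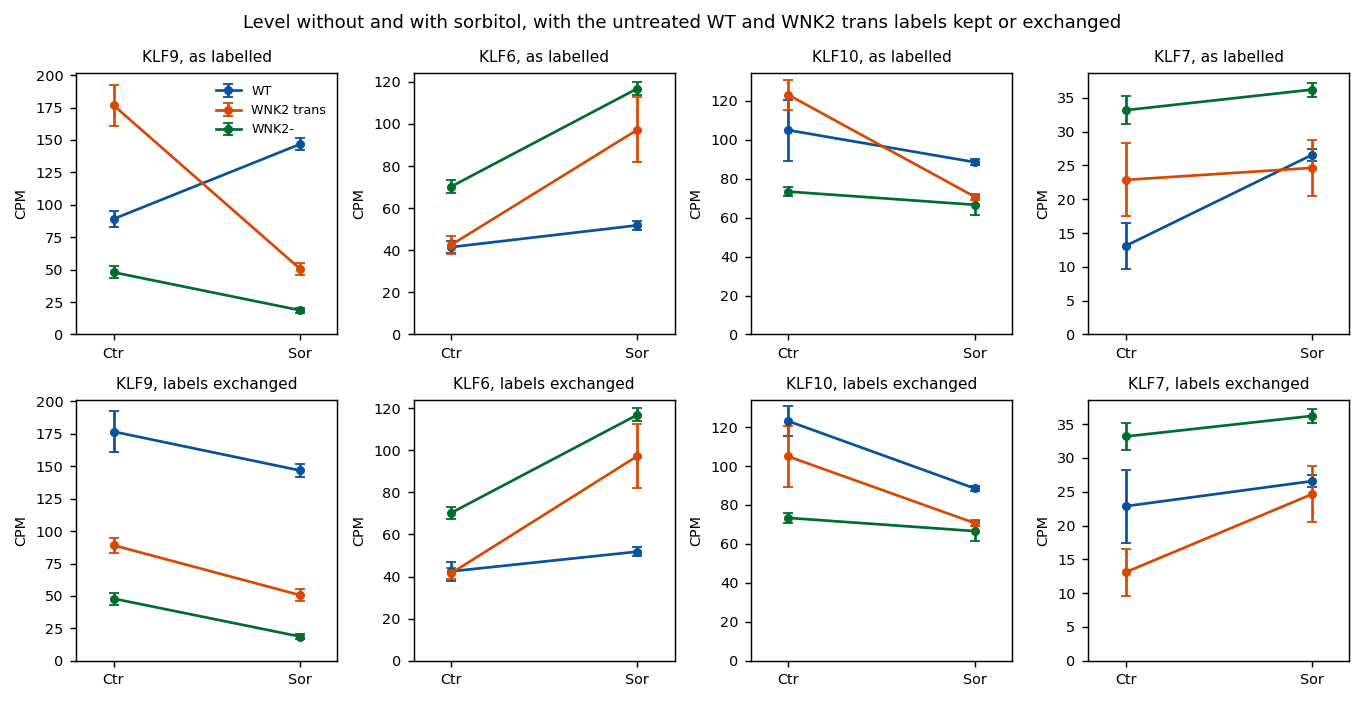
Mean level (CPM, ± 1 SD, 4 libraries) without and with sorbitol of KLF9, KLF6, KLF10 and KLF7 in WT, WNK2 trans and WNK2- cells, with the labels kept (top row) and with the libraries labelled WT Ctr and WNK2 trans Ctr exchanged (bottom row). The WT line of KLF9 runs up from 89.1 to 147 CPM in the top row and runs down from 177 to 147 CPM in the bottom row, while KLF6 has nearly the same lines in both.

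Among the genes whose mean was at least 3 on the log2 CPM scale, those most like KLF9 across the 24 libraries included SMIM3, which encodes a small membrane protein (Pearson r = 0.98), and MEST, an imprinted gene (r = 0.97), of 9646 genes compared. The libraries of a group share their treatment, and the r of the 6 group means was 0.98 to 0.99 for these genes, so the likeness lies between groups. In WNK2- Sor against WT Sor, the log2 fold change was -2.64 for SMIM3 and -2.58 for MEST. Within 2 Mb of KLF9, 13 genes were tested, and their log2 fold changes in that comparison had a median of 0.04 and ran from -1.62 to 2.59. The difference of KLF9 was larger in size than that of each of the 13. KLF9 was chosen by a difference between these genotypes and the 13 were not, so this order is a description only.

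WNK2- Sor was next compared with WT Sor for the other factors, the comparison of genotypes under sorbitol. KLF6 and KLF7 were higher in WNK2- Sor, and KLF3, KLF4 and KLF10 were lower. These were 5 of 9, while 46.3% of the 16600 genes tested passed the same threshold (edgeR quasi-likelihood test, adjusted p under 0.05). On the log2 scale the 9 had a median difference of -0.21, and all genes one of 0.02. Of WNK2 trans Sor against WT Sor, 2 of 9 passed (KLF6 higher and KLF10 lower) beside 31.7% of all genes, and of WNK2- Sor against WNK2- Ctr, 3 of 9 (KLF5, KLF6 and KLF13, all higher) beside 14.9%. KLF6 was the factor that passed in each of these 3 comparisons.

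**Figure D3:**
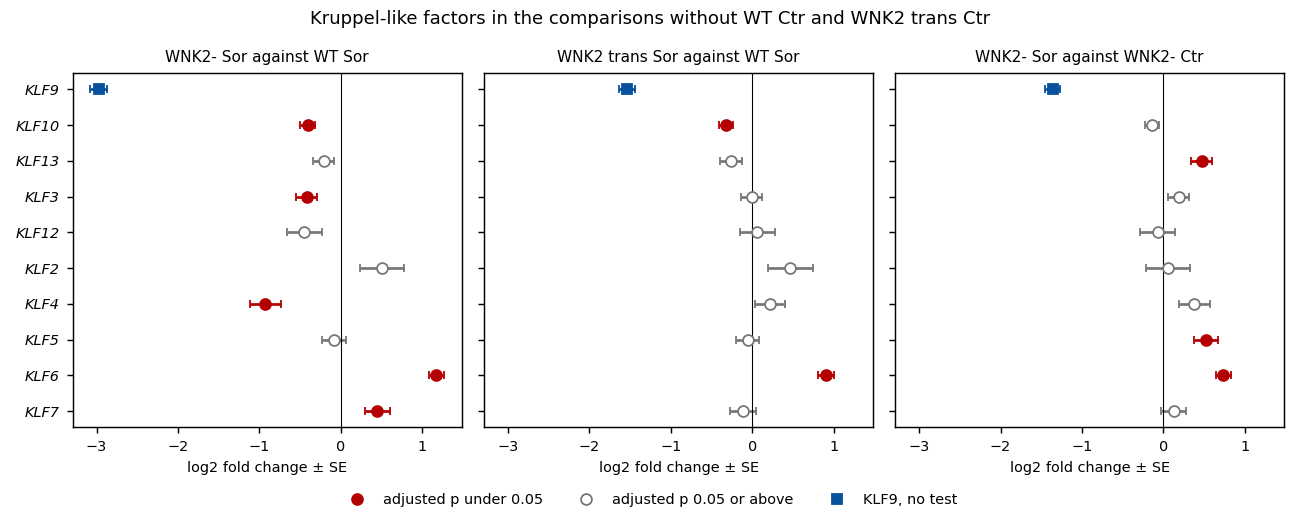
Log2 fold change (± SE) of the 10 factors in the 3 comparisons that use neither of the doubted groups. Filled circles have an adjusted p under 0.05, open circles do not, and squares mark KLF9, which is shown without a test; KLF6 lies to the right of 0 in each panel, at 1.17, 0.91 and 0.74.

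Of the SIN3A-recruiting branch, KLF10 (ENSG00000155090, chr8:102648779-102655902) was at 87.2, 88.1, 88.2 and 90.5 CPM in WT Sor, at 68.9, 72.2, 72.0 and 69.7 CPM in WNK2 trans Sor, and at 66.3, 60.2, 72.9 and 67.0 CPM in WNK2- Sor. Each library of the last groups was below each WT Sor library. KLF10 fell by 0.41 on the log2 scale in WNK2- Sor (SE 0.09, edgeR adjusted p = 0.00041) and by 0.32 in WNK2 trans Sor (SE 0.09, edgeR adjusted p = 0.0064), both against WT Sor. Its log2 fold change between WNK2- Sor and WNK2- Ctr was -0.14 (adjusted p = 0.33). It also fell by 0.80 between the WNK2 trans labels (SE 0.09, edgeR adjusted p = 5.11e-08) and by 0.57 with the libraries labelled WT Ctr as the untreated group (edgeR adjusted p = 1.52e-05). In WT Sor it fell by 0.25 against the libraries labelled WT Ctr (edgeR adjusted p = 0.042), a call lost in 17 of the 24 fits that each left out 1 library (adjusted p up to 0.21), and by 0.48 against those labelled WNK2 trans Ctr (edgeR adjusted p = 0.00039).

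KLF13 (ENSG00000169926, chr15:31326855-31435665), the third of this branch, was at 18.6, 19.1, 18.5 and 19.4 CPM in WT Sor, at 11.6, 11, 13.0 and 11.5 CPM in WNK2- Ctr and at 15.8, 15.6, 17.6 and 16.3 CPM in WNK2- Sor. It rose with sorbitol in WNK2- cells by a log2 fold change of 0.47 (SE 0.13, edgeR adjusted p = 0.018), opposite in direction to KLF9, and the WNK2- groups did not overlap. The call was lost without WNK2- Ctr replicate 1, 2 or 4 or WNK2- Sor replicate 3 (adjusted p up to 0.068). Its log2 fold change in WNK2- Sor against WT Sor was -0.21 (edgeR adjusted p = 0.20, and 0.027 when only those groups were fitted), and those groups did not overlap. Between the WNK2 trans labels it fell by 0.39 (SE 0.13, edgeR adjusted p = 0.019, 0.082 without WNK2 trans Sor replicate 2 and 0.098 when only those groups were fitted), but with the libraries labelled WT Ctr as the untreated group the value was -0.13 (adjusted p = 0.48). In WNK2- Sor against WT Sor, the log2 differences of the 19 tested genes within 2 Mb had a median of 0.94, and 17 of them differed by at least as much as KLF13.

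**Figure D4:**
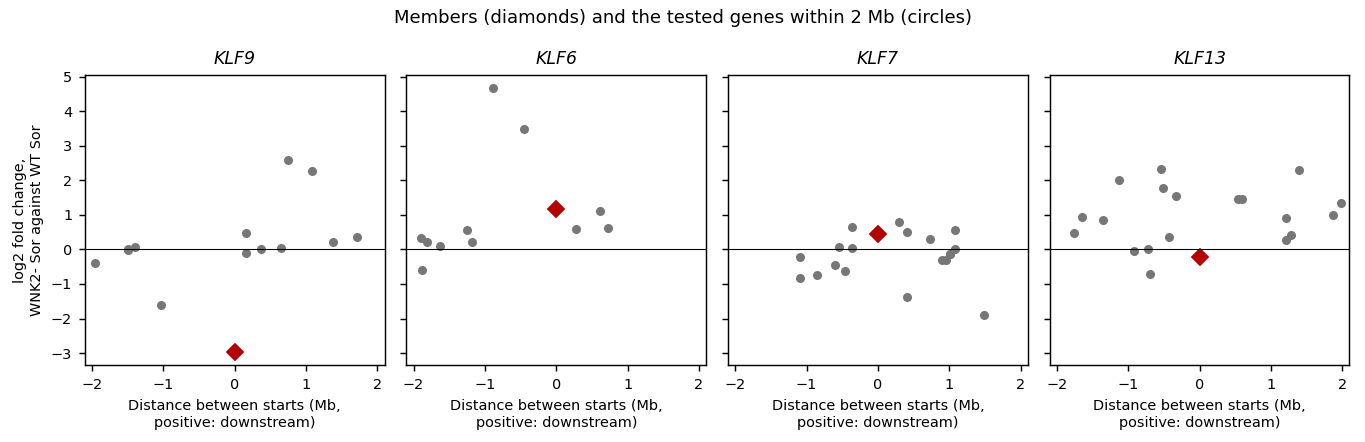
Log2 fold change in WNK2- Sor against WT Sor of KLF9, KLF6, KLF7 and KLF13 (diamonds) and of the tested genes starting within 2 Mb (circles), against the distance between starts in Mb (positive values lie downstream). KLF9, which was chosen by a difference between these genotypes, lies below all 13 of its neighbours. KLF13 lies at -0.21 among 19 neighbours with a median of 0.94.

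The CtBP-recruiting factors KLF3 and KLF12 were at similar CPM. KLF3 (ENSG00000109787, chr4:38664196-38701042) was at 38.2, 36.6, 37.4 and 35.2 CPM in WT Sor and at 27.9, 22.8, 32.2 and 27.5 CPM in WNK2- Sor. The groups did not overlap, and KLF3 fell by 0.42 on the log2 scale (SE 0.13, edgeR adjusted p = 0.0093). In WNK2- Ctr it was at 22.7 to 26.3 CPM, below each untreated library of the doubted groups (29.7 to 51.4 CPM), with a fall of 0.85 against the libraries labelled WT Ctr (edgeR adjusted p = 8.95e-06) and of 0.59 against those labelled WNK2 trans Ctr (edgeR adjusted p = 0.00048). The antisense gene KLF3-AS1 shares 266 exon bases with KLF3 on the opposite strand and held 6 to 35 counts per library, while KLF3 held 439 to 872. KLF12 (ENSG00000118922, chr13:73686089-73995056) was at 36.7 to 46.1 CPM in WT Sor and at 23.9 to 35.3 CPM in WNK2- Sor, groups that did not overlap, with a log2 fold change of -0.45 (SE 0.22, edgeR adjusted p = 0.091, and 0.00084 when only those groups were fitted). It spread widely in the WNK2 trans libraries, from 21.9 to 45.4 CPM without and from 25 to 55.4 CPM with sorbitol. KLF12 passed the edgeR test in none of the 9 comparisons as labelled, but DESeq2 called it higher in WT Sor than in WT Ctr (log2 fold change 0.55, adjusted p = 0.048), as did edgeR with no filter on low counts (adjusted p = 0.032) or without WT Ctr replicate 3, WNK2 trans Ctr replicate 3 or WNK2 trans Sor replicate 1 (adjusted p from 0.023 to 0.032).

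Of the activating branch, KLF6 (ENSG00000067082, chr10:3775996-3785281) was at 50.1, 53.9, 53.4 and 49.9 CPM in WT Sor, at 82.6, 100, 118 and 88.8 CPM in WNK2 trans Sor and at 118, 114, 121 and 114 CPM in WNK2- Sor. In WNK2- Ctr it was at 66.4, 73.8, 70.4 and 70.2 CPM. Each WNK2- Ctr library was above each WT Sor library and below each WNK2- Sor library. Against WT Sor, KLF6 rose 2.25-fold in WNK2- Sor (log2 fold change 1.17, SE 0.10, edgeR adjusted p = 2.14e-10) and 1.88-fold in WNK2 trans Sor (0.91, SE 0.10, edgeR adjusted p = 7.91e-08). Sorbitol raised it 1.66-fold in WNK2- cells (0.74, SE 0.09, edgeR adjusted p = 3.51e-06). Of the 11 tested genes within 2 Mb, 6 had a value at least as large in size as that of KLF6 in this comparison, with a median of 0.86 on the log2 scale. In WNK2- Sor against WT Sor 2 of the 11 did, with a median of 0.55. The libraries labelled WT Ctr (37.9 to 44.6 CPM) and WNK2 trans Ctr (36.4 to 45.9 CPM) were alike in range, so the comparisons that use them moved little with the labels. Between the WNK2 trans labels it rose 2.29-fold, and 2.34-fold with the libraries labelled WT Ctr as the untreated group. In WT the rise was 1.25-fold as labelled (edgeR adjusted p = 0.016) and 1.22-fold with the other group (edgeR adjusted p = 0.042).

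The sorbitol response of KLF6 was larger in the WNK2 trans labels than in WT by 0.87 on the log2 scale (SE 0.14, edgeR adjusted p = 1.62e-05) as labelled, and by 0.94 (SE 0.14, edgeR adjusted p = 9.60e-05) with the labels exchanged. The difference between WNK2- and WT was 0.41 (SE 0.13, edgeR adjusted p = 0.055) as labelled and 0.45 (edgeR adjusted p = 0.069) with the libraries labelled WNK2 trans Ctr in place of WT Ctr. The former passed without WT Ctr replicate 1, WNK2 trans Ctr replicate 3 or WNK2 trans Sor replicate 1 or 3 (adjusted p from 0.039 to 0.043). Across the 4 groups outside the doubted ones, WNK2- Sor was thus lowest for KLF9 and highest for KLF6, and WT Sor was highest for KLF9 and lowest for KLF6.

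KLF7 (ENSG00000118263, chr2:207074137-207167267) was at 26.8, 27.6, 25.6 and 26.3 CPM in WT Sor, at 31.0, 31.8, 35.3 and 34.5 CPM in WNK2- Ctr and at 36.5, 37.5, 35.1 and 35.7 CPM in WNK2- Sor. It rose by a log2 fold change of 0.45 in WNK2- Sor against WT Sor (SE 0.16, edgeR adjusted p = 0.022), and the adjusted p was 0.065 without WT Sor replicate 3 and 0.059 without WT Sor replicate 4. In the libraries labelled WT Ctr it was at 10.4, 10.1, 17.3 and 14.6 CPM, the lowest group, and in those labelled WNK2 trans Ctr at 26.8, 24, 14.9 and 25.8 CPM. The rise with sorbitol in WT was therefore 1.02 on the log2 scale as labelled (SE 0.16, edgeR adjusted p = 7.97e-05) and 0.22 (adjusted p = 0.40) with the libraries labelled WNK2 trans Ctr as the untreated group. The interaction of genotype with sorbitol, of which KLF7 was the 1 factor of 9 to pass (8.65% of all genes, and 5.03% without WNK2- Sor replicate 3 or 5.58% without WNK2- Ctr replicate 2), was -0.89 (SE 0.23, edgeR adjusted p = 0.014) as labelled and -0.09 (adjusted p = 0.93) with the other group. In that arrangement 0 of 9 passed by edgeR, 3 at an unadjusted p under 0.05, and 3.39% of all genes passed.

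KLF4 (ENSG00000136826, chr9:107484852-107490482) and KLF2 (ENSG00000127528, chr19:16324817-16327874) are the pair downstream of ERK5. KLF4 was at 37.9, 31.0, 34.0 and 36.9 CPM in WT Sor and at 17.7, 19.9, 17.6 and 18.2 CPM in WNK2- Sor, without overlap, and fell by 0.93 on the log2 scale (SE 0.19, edgeR adjusted p = 0.00022). In WNK2 trans Sor it ranged from 28.3 to 54.1 CPM. In WNK2- Ctr it was at 13.8 to 14.4 CPM, below the libraries labelled WNK2 trans Ctr (26.3 to 40.0 CPM) and overlapping those labelled WT Ctr (11.9 to 28.6 CPM). KLF2 was at 10.0 to 14.3 CPM in WT Sor and at 13.9 to 20.4 CPM in WNK2- Sor, with a log2 fold change of 0.50 (SE 0.28, edgeR adjusted p = 0.14). It passed the edgeR test on all groups in none of the 9 comparisons as labelled, but did so in WNK2- Sor against WT Sor when only those groups were fitted (adjusted p = 0.0052), and in WNK2- Ctr against WT Ctr without WT Ctr replicate 1 (log2 fold change 0.71, adjusted p = 0.0496, against 0.45 with it). Its widest spread was within a group, from 5.80 to 17.9 CPM in the libraries labelled WT Ctr.

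KLF5 (ENSG00000102554, chr13:73054976-73077542), known from epithelium and from vascular and cartilage remodelling, lies 609 kb from KLF12 on the same chromosome. In the 3 sorbitol groups it was at 14.4 to 17.4 CPM in WT, 13.7 to 17.3 CPM in WNK2 trans and 13.7 to 16.0 CPM in WNK2-, and in the 12 untreated libraries it lay between 6.67 and 12.3 CPM. Each of the 12 sorbitol libraries was thus above each untreated library. KLF5 rose by a log2 fold change of 0.52 in WNK2- (SE 0.14, edgeR adjusted p = 0.013), 0.78 in WT (SE 0.15, edgeR adjusted p = 0.00042) and 0.83 in WNK2 trans (SE 0.15, edgeR adjusted p = 5.03e-05). With the doubted groups exchanged, the values were 0.89 in WT and 0.72 in WNK2 trans, and both passed (edgeR adjusted p = 0.00012 and 0.00038). The WNK2- value lost its call without WNK2- Ctr replicate 4 (adjusted p = 0.053) and with all libraries thinned to the smallest total (log2 fold change 0.41, edgeR adjusted p = 0.052). In WNK2- Sor against WT Sor the log2 fold change of KLF5 was -0.08 (SE 0.14, adjusted p = 0.65).

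The comparisons that use a doubted group are given as counts. In WT Sor against the libraries labelled WT Ctr, 5 of 9 passed (KLF4, KLF5, KLF6 and KLF7 higher, KLF10 lower) beside 24.1% of all genes, and against those labelled WNK2 trans Ctr 3 of 9 (KLF5 and KLF6 higher, KLF10 lower) beside 15.1%. In WNK2- Ctr the same 6 of 9 passed against either group (KLF6 and KLF7 higher, KLF3, KLF4, KLF10 and KLF13 lower), beside 42.1% of all genes for the libraries labelled WT Ctr and 47.7% for those labelled WNK2 trans Ctr. The sizes depended on the group, with log2 fold changes of 1.34 and 0.54 for KLF7 and of -0.55 and -1.16 for KLF4 against the former and the latter. The call of KLF4 against the libraries labelled WT Ctr was lost without WT Ctr replicate 1 (log2 fold change -0.35, adjusted p = 0.14), without WT Ctr replicate 4 (adjusted p = 0.057) and without WNK2- Ctr replicate 1 (adjusted p = 0.052). Between the doubted groups, KLF4 and KLF7 passed, both higher in the libraries labelled WNK2 trans Ctr, beside 12.5% of all genes. In WNK2 trans Sor, 4 of 9 passed as labelled (KLF5 and KLF6 higher, KLF10 and KLF13 lower) beside 48% of all genes, and 6 of 9 with the libraries labelled WT Ctr (KLF4, KLF5, KLF6, KLF7 and KLF12 higher, KLF10 lower) beside 39.2%. The sorbitol response of the WNK2 trans labels differed from that of WT for 4 of 9 (KLF6 higher, KLF7, KLF10 and KLF13 lower) beside 35.5% of all genes as labelled, and for KLF6 beside 5.46% with the labels exchanged.

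The genes around the Kruppel-like factors were examined from lists of partners, regulators and targets in WNK2- Sor against WT Sor, where 46.3% of all genes passed. Counts called ranged from 1 of 5 to 8 of 9 tested genes per list and were not tested as lists. Of the other KLF genes, 5 of 8 were tested and KLF11, a SIN3A-recruiting relative of KLF10, was the 1 that passed, with a log2 fold change of -0.62 (edgeR adjusted p = 0.0025), and it was also lower in WNK2 trans Sor (-0.85). The SP factors bind the same GC boxes, and of 6 tested SP4 (-0.66) and SP1 (-0.57) fell. Of 11 corepressors and coactivators 4 passed, KAT2B (-0.67), HDAC1 (-0.42) and SIN3A (-0.34) lower and CTBP2 (0.47) higher. KAT2B is an acetyltransferase and HDAC1 the deacetylase that SIN3A carries. Of 6 tested ubiquitin ligases of these factors, SMURF2 rose (1.10) and FBXO32 fell (-0.37).

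The lists that follow were read in the same comparison, WNK2- Sor against WT Sor, beside the same 46.3% of all genes. Upstream of KLF2 and KLF4, 9 of 11 genes of the ERK5 pathway were tested. HEG1, the membrane partner of the CCM complex, fell (-2.05) and CCM2 rose (0.33). Of 9 tested hormone receptors and response genes, 3 rose and 5 fell. The glucocorticoid-induced genes TSC22D3 (-1.58) and PER1 (-1.16) and the thyroid hormone receptor THRA (-1.53) fell, while FKBP5 (0.49) and CRISPLD2 (0.30), glucocorticoid-induced as well and named after their values were seen, rose. The mineralocorticoid receptor NR3C2 also rose (1.40) at a mean of 1.05 CPM in WT Sor and 2.79 CPM in WNK2- Sor. Of 10 TGF-beta genes 6 fell, among them SMAD7, the feedback inhibitor (-1.10), the ligand TGFB1 (-0.90) and the receptor TGFBR1 (-0.79). Of 9 tested immediate early genes 1 rose and 7 fell, with EGR1 at -4.93, FOS at -3.96, EGR3 at -2.55 and EGR2 at -1.78. Of 5 tested reported targets, THBD, a KLF2 target in endothelium, fell (-3.31) and CCND1, a cyclin of entry into the cell cycle, rose (2.08).

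Markers of cartilage and of other cell types were read in the same comparison, beside the same 46.3% of all genes. Of 7 tested cartilage markers 5 were lower in WNK2- Sor than in WT Sor, and their summed level was 20.3 and 22.3 CPM in the WNK2- groups and 73.9 to 124 CPM in the other 4. HAPLN1 held most of that sum, and without it the sum was 4.33 to 6.60 CPM in both WNK2- groups and WNK2 trans Sor, against 14.6 to 27.5 CPM in the other 3. Of 4 tested endothelial markers 2 were higher and 1 lower, with a summed level of 26.7 to 102 CPM per group and TEK, the angiopoietin receptor, at 0.56 CPM or less. Of 2 tested blood and macrophage markers CD14 was lower (-2.47), with a summed level of 6.22 to 19.8 CPM, PTPRC at 0.34 CPM or less and CD68 listed at 0. The part of these markers in the differences of the Kruppel-like factors was not tested, and in bulk RNA fewer cells of a type and less RNA per cell cannot be told apart.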

How the data were processed

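The 24 deposited count files hold raw counts of reads per Ensembl gene, 1 file per library. Per the submitters' processing notes, reads were checked with FastQC 0.11.9, aligned to GRCh38 with HISAT2 2.2.1 and counted with HTSeq 2.0.2, and the authors normalised with DESeq2. The annotation release and the strand setting are not given in the sources used here. Symbols came from a separate list of gene names. Positions and exon lengths came from GENCODE 29 (GRCh38), which placed 58279 of the 62703 identifiers. Genes without a position could not be counted as neighbours. Counts were fitted with edgeR 4.0.16 (R 4.3.3) after filtering on expression by group, which left 16600 genes, all 10 members among them, with TMM scaling, 6 group means over all libraries, the quasi-likelihood test and Benjamini-Hochberg adjustment over all genes (threshold 0.05). Each SE was taken from the size of the change and its F statistic. CPM uses the TMM-scaled totals, which ranged before scaling from 14153002 to 25664619. Counting error and replicate spread both limit precision. Scripts were tested on simulated data. The members and lists were chosen with earlier results of these data known. The named genes were all members, WNK2, up to 4 genes of each list called with the largest change in WNK2- Sor against WT Sor, and the 3 genes most like KLF9, of which some are not reported here. The alternatives were other scaling, filters, tools, comparators and left-out libraries.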

Additional observations from a re-analysis of the deposited data

Results flagged for a closer look

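A difference in sorbitol response between groups drew attention to 5 members. KLF7 responded to sorbitol less in WNK2- than in WT cells by a log2 value of -0.89 (edgeR adjusted p = 0.014). For KLF9 the difference was -2.08, with a response of -1.36 in WNK2- and 0.72 in WT cells as labelled, which is the value KLF9 was chosen by and carries no test. Between the WNK2 trans labels and WT, the response differed by 0.87 for KLF6 (edgeR adjusted p = 1.62e-05), by -0.91 for KLF7 (edgeR adjusted p = 0.0031), by -0.55 for KLF10 (edgeR adjusted p = 0.0011), by -0.52 for KLF13 (edgeR adjusted p = 0.034, and up to 0.074 without WT Ctr replicate 2, WT Sor replicate 2 or 4, WNK2 trans Ctr replicate 2 or 4 or WNK2 trans Sor replicate 2) and by -2.52 for KLF9, given with no test. Each of these rests on libraries labelled WT Ctr or WNK2 trans Ctr, whose WNK2 levels relative to each other go against their labels. With the labels exchanged, the WNK2 trans values were 0.94 for KLF6, 0.70 for KLF7, -0.09 for KLF10, 0.01 for KLF13 and -0.55 for KLF9. Of the 60 sets of 4 libraries (10 members in 6 groups), none held a library set apart from the other 3 by Dixon's ratio, where chance gives about 5%.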

How the results depend on the processing

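Over the 54 log2 fold changes called in at least 1 fit or given for KLF9, 1706 of 1813 values from alternative fits kept their direction and their side of the threshold or, for KLF9, stayed within 1 SD; 68 lost and 32 gained a call, and 3 for KLF9 moved further than that. The direction turned in 4. KLF9 in WT Sor was -0.27 against the libraries labelled WNK2 trans Ctr, the difference of response between WNK2 trans and WT was 0.70 for KLF7 and 0.0066 for KLF13 with the labels exchanged, and KLF7 between the WNK2 trans labels ranged from -0.040 (without WNK2 trans Ctr replicate 3) to 0.20 when single libraries were left out. The cause was not tested.

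A minimum log2 change of 0.3 lowered the count of members called to 2 for WNK2- Sor against WT Sor, 1 for WNK2- Sor against WNK2- Ctr, 1 for WNK2 trans Sor against WT Sor, 3 for WT Sor against WT Ctr, 1 for WNK2 trans Ctr against WT Ctr and 0 for the genotype interaction. In the same order, the shares of all genes called were 31.2%, 6.13%, 15.9%, 8.56%, 4.84% and 3.14%. Fitting only the groups compared, by construction with fewer samples, gave 8 for WNK2- Sor against WT Sor, beside 63.1% of all genes tested there. For WNK2 trans Ctr against WT Ctr it gave 0 (2 at an unadjusted p under 0.05 by edgeR, against 2 calls by DESeq2 on all groups), beside 5.22%. For the genotype interaction it gave 2, beside 12.5%. The interaction also had 2 with RLE factors (beside 8.69% of all genes), upper-quartile factors (8.77%), at least 10 counts in every library (12.3%) or DESeq2 (12.1%), KLF6 being the second. With the comparators changed, the counts were 3 for WT Sor (beside 15.1% of all genes), 0 for the genotype interaction (3.39%) and 1 for the WNK2 trans interaction (5.46%). Leaving out single libraries gave 1 to 3 for WNK2- Sor against WNK2- Ctr (1 without WNK2- Ctr replicate 4), 1 to 2 for WNK2 trans Ctr against WT Ctr (1 without WNK2 trans Ctr replicate 4) and 1 to 2 for the genotype interaction (2 without WT Ctr replicate 1, WNK2 trans Ctr replicate 3 or WNK2 trans Sor replicate 1 or 3). KLF4 between WNK2 trans Ctr and WT Ctr lost its call without WT Ctr replicate 2 or 3 or WNK2 trans Ctr replicate 3 or 4 (edgeR adjusted p up to 0.14). Calls were gained by leaving out 1 library for KLF13 in WNK2 trans Sor against WT Sor (-0.41 without WNK2 trans Sor replicate 3), KLF4 between the WNK2 trans labels (0.50 without WNK2 trans Sor replicate 2), KLF10 between WNK2 trans Ctr and WT Ctr (0.29 and 0.31 without WT Ctr replicate 2 or 3), and KLF12 there (0.61 without WNK2 trans Ctr replicate 3) and in WNK2- Sor against WT Sor (-0.46 and -0.47 without WNK2 trans Ctr replicate 3 or WNK2 trans Sor replicate 1).

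Over all genes, the count called for the genotype interaction went from 1436 to 849 without WNK2- Sor replicate 3 and to 944 without WNK2- Ctr replicate 2. Counts over all genes also changed from 2473 to 4824 (WNK2- Sor against WNK2- Ctr) and from 2082 to 747 (WNK2 trans Ctr against WT Ctr) with only the groups compared. With the comparators changed it went from 4008 to 2499 (WT Sor), from 1436 to 562 (genotype interaction) and from 5897 to 906 (WNK2 trans interaction). The minimum change lowered it to 1018, 2642, 1421, 4378, 804, 5310 and 522 for WNK2- Sor against WNK2- Ctr, WNK2 trans Sor against WT Sor, WT Sor, WNK2- Ctr, WNK2 trans Ctr, WNK2 trans Sor and the genotype interaction, from 2473, 5254, 4008, 6996, 2082, 7972 and 1436.

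Replicate numbers showed no pairing in the median, but some same-numbered libraries were alike. Deviations of same-numbered libraries had a median correlation of 0.01 over 60 pairs (-0.29 to 0.46), and 11 of 24 libraries correlated best with their own number. With a replicate block, WNK2- Sor against WT Sor kept 5 members called, beside 45.6% of all genes. WNK2- Sor against WNK2- Ctr kept 3 (14.2%) and WNK2 trans Sor against WT Sor 2 (31.1%).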
